A study of Mus musculus with 6 samples.

Results

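MARIO read pairs were examined for 10 abundant messenger RNAs of mouse embryonic stem (ES) cells that encode translation factors, chaperones, cytoskeletal proteins and nucleolar proteins. A read pair belonged to an mRNA when the name given to its first fragment (RNA1) or to its second fragment (RNA2) was Eef1a1, Eef2, Eif4a1, Hspa8, Hsp90ab1, Actb, Actg1, Tuba1b, Ncl or Npm1. These are 10 of the 19728 protein-coding genes named in the 3 ES libraries. In MARIO, RNAs are crosslinked to the proteins that hold them, and nearby RNA ends are joined through a biotin-tagged linker, which gives chimeras of the form RNA1-linker-RNA2. The ES group had 2 libraries, ES-1 and ES-2, and the ES indirect group had 1. All were made from E14 ES cells of strain 129/Ola, with no added transgene, deletion or drug named in the labels. ES-1 and ES-2 were crosslinked with ultraviolet light of 254 nm and cut with RNase I, and ribosomal RNA (rRNA) was removed with a duplex-specific nuclease from ES-1 and with the GeneRead kit from ES-2. For ES indirect, formaldehyde and EGS, which also tie proteins to proteins, served as crosslinkers, and the RNA was sonicated and depleted with the nuclease. The labels put the first fragments at about 1000 nt, and the methods give a wider range, reaching larger sizes, for ES-1.

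Elongation factors carry aminoacyl-tRNA to the ribosome and move the ribosome along the message, and chaperones bind newly made polypeptides. Actins and tubulins build the filaments and microtubules of the cytoskeleton, while nucleolin and nucleophosmin work in the nucleolus, where ribosomal subunits are assembled. The mRNAs of all of these proteins are highly expressed in dividing cells and are heavily translated, and several of the genes carry small nucleolar RNAs (snoRNAs) in their introns or have many processed pseudogenes in the mouse genome.

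Lines that agreed in all coordinates were counted as 1 distinct read pair. The 13485 lines of the 10 mRNAs gave 8088 distinct read pairs, of which 3606 came from ES-1, 1514 from ES-2 and 2968 from ES indirect. In all, the libraries held 2310134, 1241787 and 1655476 distinct read pairs. The distinct pairs were 54.9% of the lines of these mRNAs in ES-1, 92.5% in ES-2 and 56.2% in ES indirect, so repeated coordinates were rare only in ES-2. All 12 ES cell marker genes that were looked up, Pou5f1, Sox2 and Nanog among them, had read pairs, with 973 in ES-1, 461 in ES-2 and 1904 in ES indirect. Fibroblast markers, which ES cells should hardly express, had 140, 221 and 80 read pairs over 9 of 10 genes. Twist2 alone held 36, 147 and 16 of these. With 2 libraries against 1, an exact permutation test cannot give a p below 0.333, so crosslinking conditions were described and not tested. Intervals are 95% Wilson intervals and cover counting error only.

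The 3 translation factor mRNAs differed widely in how often they were captured. Eef1a1 (chr9:78326256-78336958, minus strand) encodes the elongation factor that brings aminoacyl-tRNA to the ribosome. It gave 181 distinct read pairs per 1000000 library pairs and per kilobase of transcript in ES-1, 145 in ES-2 and 189 in ES indirect. Eef2 (chr10:80639376-80645252, plus strand), which encodes the translocation factor, gave 121, 95.7 and 87.9 on the same scale. Eif4a1 (chr11:69480438-69485925, minus strand) encodes the RNA helicase of the cap-binding complex and was captured far less, at 25.1, 25.3 and 47.6. Eef1a1 was the highest of the 10 mRNAs on this scale in all 3 libraries.

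Of the chaperones, Hsp90ab1 (chr17:45704724-45710220, minus strand), the constitutive cytosolic HSP90, gave 138, 107 and 115 read pairs on this scale in ES-1, ES-2 and ES indirect. Hspa8 (chr9:40609067-40613283, plus strand), the constitutive HSP70, gave 31.1, 10.1 and 32.3. Its ES-2 value rests on 30 read pairs. Of the cytoskeletal mRNAs, Actb (chr5:143664794-143668433, minus strand), which encodes beta-actin, gave 67.9, 77.2 and 148. Actg1 (chr11:120207004-120209856, minus strand), for gamma-actin, gave 18.2, 26.0 and 44.9, and Tuba1b (chr15:98761856-98764996, minus strand), for an alpha-tubulin, gave 19.4, 22.2 and 70.4. How the libraries compare depends on the scale, since protein-coding RNAs took part in 17.5%, 30.7% and 43.6% of all read pairs in ES-1, ES-2 and ES indirect. Per library pair, Actb, Actg1 and Tuba1b were highest in ES indirect. Per 1000000 protein-coding pairs and per kilobase, Actb had 389, 251 and 339, Actg1 104, 84.6 and 103, and Tuba1b 111, 72.2 and 161, so that on both scales only Tuba1b of these 3 was highest in ES indirect. Ncl (chr1:88241294-88256030, minus strand), for nucleolin, gave 18.2, 6.92 and 18.7, and Npm1 (chr11:33052287-33063206, minus strand), for nucleophosmin, gave 25.7, 16.8 and 46.6. The Ncl values are low partly by their denominator, since the annotated transcript has a 3′UTR of 5901 nt, in which only 3.05 ends per kilobase were found when ES-1 was merged with ES-2 (ES merged) against 182 in the coding sequence. A level in cells of this kind cannot tell fewer expressing cells from less RNA per cell.

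The first comparison asked how often both fragments came from the same mRNA. There were 154 such within-RNA read pairs in ES-1, 21 in ES-2 and 438 in ES indirect, with pairs in which no linker was read, described below, included. They made up 4.27%, 1.39% and 14.8% of the read pairs of the 10 mRNAs, while over all protein-coding genes the shares were 4.67%, 1.67% and 36.4%. In ES indirect, the median gene with at least 20 read pairs had 39.4% within-RNA pairs against a median of 13.6% for the 10. By the names in the files, the 10 mRNAs thus lay below the general level there. Fragments named otherwise that matched the transcript, described below, would raise their share in ES indirect to 35.2%, or to 25.6% when only those that matched the transcript better than their stated place are counted. The general level was not recomputed in this way, so the size of the difference depends on the names. It was also not limited to exons. In ES indirect 96.0% of the ends of the 10 mRNAs were exonic. Over all protein-coding genes this was so for 26.3% of the ends joined to another partner, so the levels compared cover different regions. Each library was sequenced on 2 flow cells, and a distinct pair was credited to the flow cell of its first line only. Split this way, ES-1 had within-RNA shares of 6.10% and 2.41%, ES-2 had 1.83% and 0.781%, and ES indirect had 19.96% and 8.93%. A pair with lines on both flow cells counts for 1 of them, so a difference between flow cells was not tested. Both shares of ES indirect lay above every share of the other libraries.

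By name, Eef2 had the most within-RNA pairs, with 43 in ES-1, 5 in ES-2 and 107 in ES indirect, followed by Hsp90ab1 with 42, 5 and 81. Ncl had 24, 2 and 55, Actb 15, 3 and 58, and Eef1a1 16, 1 and 55. Relative to all of its own pairs, Eef1a1 had 2.13% in ES-1, 0.311% in ES-2 and 9.79% in ES indirect by name, against 4.98%, 1.36% and 23.7% for Eef2. With matching fragments counted, the ES indirect shares were 46.8% and 45.5%, and with better matches alone 30.2% and 44.1%, so this order depends on the names. Over the 3 libraries, Eef1a1 then had 321 pairs and Eef2 281, or 207 and 274 with better matches alone. The remaining mRNAs had few within-RNA pairs under ultraviolet light. Eif4a1 had 2 and 4 in ES-1 and ES-2 and 22 in ES indirect, Hspa8 11, 0 and 12, Actg1 0, 1 and 15, Tuba1b 1, 0 and 13, and Npm1 0, 0 and 20. In ES indirect both ends lay on the annotated spliced transcript in only 1 of the 20 Npm1 pairs and 11 of the 22 Eif4a1 pairs. The other pairs had an end off that transcript and are within-RNA by gene name only.

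The order of the fragments along the RNA was then read. A pair was collinear when RNA1 lay upstream of RNA2, as in an unbroken molecule, and inverted when RNA1 lay downstream of RNA2, which an unbroken copy of the mRNA cannot give. Over the 10 mRNAs, ES-1 had 42 collinear, 12 inverted and 100 overlapping pairs. ES-2 had 5, 8 and 8, and ES indirect had 223, 74 and 141. The inverted share was 7.79% (4.51 to 13.1) in ES-1, 38.1% in ES-2, where it rests on 21 pairs, and 16.9% in ES indirect. By flow cell of the first line of each pair it was 6.31% and 11.6% in ES-1, with 43.75% and 20% in ES-2, and 14.7% and 22.4% in ES indirect. Ends more than 200 nt apart were found in 9.09%, 14.3% and 17.8% of the pairs, with distances taken along the spliced transcript where both ends lay on it and along the genome otherwise. Among the 146, 19 and 338 pairs with both ends on the spliced transcript the shares were 6.85%, 15.8% and 17.5%.

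**Figure D1:**
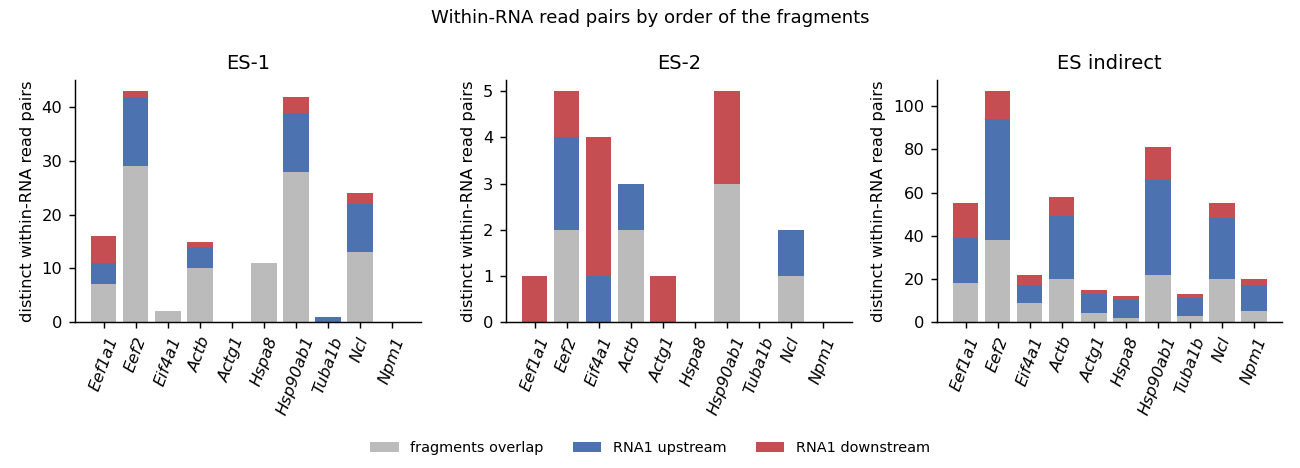
Distinct within-RNA read pairs (y axis, counts on a scale of its own in each panel) of the 10 mRNAs (x axis) in ES-1, ES-2 and ES indirect, coloured by whether the fragments overlapped, RNA1 lay upstream or RNA1 lay downstream. Overlapping pairs were the largest class in ES-1 (100 of 154) and collinear pairs in ES indirect (223 of 438), and Eef2 and Hsp90ab1 had the tallest bars in all 3 panels.

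Most collinear and overlapping pairs were of full read length, that is, RNA1 was 90 nt and RNA2 100 nt long, so that neither read had reached a linker. This was so for 133 of 154 within-RNA pairs in ES-1, 12 of 21 in ES-2 and 294 of 438 in ES indirect. Only 2, 0 and 4 of these were inverted. For its analysis of RNA structure, the study took out same-gene pairs that held no part of the linker, whereas the counts here keep them. Without the pairs of full read length, 21, 9 and 144 were left in ES-1, ES-2 and ES indirect. Among the pairs with a shorter fragment, 60.0% of the 30 pairs of ES merged and 48.6% of the 144 pairs of ES indirect were inverted, and 43.3% and 43.75% spanned more than 200 nt. Long spans and inverted order were thus concentrated in pairs in which a boundary had been read.

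The last bases of RNA1 often differed from the genome. Of the 174 shorter within-RNA pairs, 146 had an RNA1 that ended in C, and in 132 this last base differed from the genome at the stated place. In 91 the differences were confined to the last 3 bases. The stated end of RNA1 can therefore be off by a few bases, and junction positions below are those of the files.

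Window pairs of 50 nt by 50 nt were compared between libraries to find recurrent places. The most frequent recurrent one in Eef1a1 joined nt 1301 to 1350 with nt 1251 to 1300 of the transcript, in the coding sequence, with 5 read pairs in ES-1, 0 in ES-2 and 5 in ES indirect. In Eef2 it joined nt 1151 to 1200 with nt 1101 to 1150 (6, 0 and 1), and in Hsp90ab1 both ends lay in nt 2251 to 2300 (2, 0 and 4). In Ncl both ends lay in nt 601 to 650, with 3, 1 and 1 read pairs, which was the only one of these windows seen in all 3 libraries. Hspa8 had nt 1201 to 1250 with 1151 to 1200 (1, 0 and 2), and Actb had nt 1651 to 1700 with 1601 to 1650 of its 3′UTR (2, 0 and 1). All of these pairs were of full read length and none was inverted. Eif4a1, Actg1, Tuba1b and Npm1 had no window pair in more than 1 library, and no inverted pair shared its windows with an inverted pair of another library.

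Fixed windows can divide neighbours, so inverted pairs were also grouped when both joined ends lay within 50 nt of each other, a grouping made after the values were seen. Of 9 such groups, 4 drew on more than 1 library, 3 of them in Eef1a1 and 1 in Eif4a1. The largest group, in the coding sequence of Eef1a1, joined an RNA1 that ended between nt 634 and 676 to an RNA2 that began between nt 469 and 515, with 5 read pairs in ES indirect and 1 in ES-1. The ends lay 134 to 192 nt apart. Both fragments lay on chr9 of mm9, RNA1 at chr9:78327748-78327778 and RNA2 at chr9:78327839-78327894 in the ES-1 pair, and at chr9:78327750-78327808 and chr9:78327868-78327931 in the ES indirect pair shown. The junctions of these pairs are shown because they are the inverted contact of these mRNAs with most read pairs. Lower case marks the last 15 bases of RNA1 as deposited and capitals the first 15 bases of RNA2, between which the linker had lain, in the sense of the mRNA.
Eef1a1 junction in ES-1: aagtcagcacctaccAGAACGGGCAGACCC
Eef1a1 junction in ES indirect: ggaagtcagcacctcGCTGCTGGTGTTGGT

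The other Eef1a1 groups held 1 read pair from each of 2 libraries. In the first, RNA1 ended at nt 1056 in ES-1 and nt 1053 in ES indirect, and RNA2 began at nt 934 and 898. In the other, RNA1 ended at nt 1429 in ES-2 and nt 1477 in ES indirect, and RNA2 began at nt 1307 and 1324. Actb had a group of 3 pairs in ES indirect, within its 3′UTR, that joined nt 1650 to 1697 back to nt 1413 to 1454. Hsp90ab1 had 3 groups of 2 pairs, all in ES indirect.

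**Figure D2:**
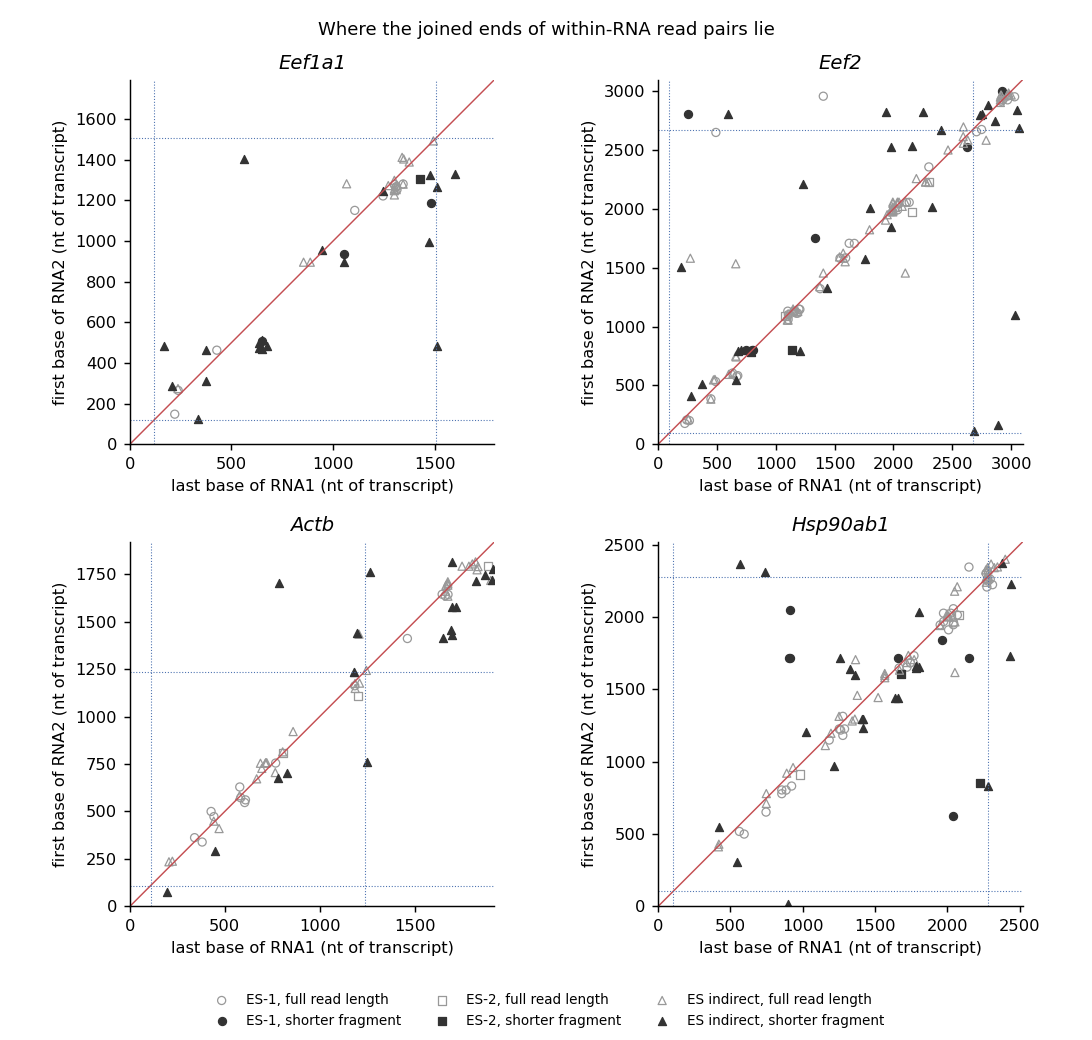
Last base of RNA1 (x axis) against first base of RNA2 (y axis), in nt of the spliced transcript, for the within-RNA read pairs of Eef1a1, Eef2, Actb and Hsp90ab1 whose ends lay on the annotated transcript. Open symbols are pairs of full read length, filled symbols pairs with a shorter fragment, dotted lines the ends of the coding sequence, and points far below the red diagonal, such as the Eef1a1 group near nt 650 and nt 500, are inverted.

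In Eif4a1, 6 of the 8 inverted pairs had RNA2 fragments whose far end, away from the linker, fell on the same base, chr11:69480946. It lies in the 3′UTR, 29 nt after the stop codon and at nt 1372 of the transcript. Of these 6 pairs, 0 came from ES-1, 3 from ES-2 and 3 from ES indirect, and their ends were 103 to 260 nt apart. They include the Eif4a1 group named above, whose 4 pairs all had this RNA2 end. Of all 221 RNA2 fragments of Eif4a1, 19 ended on that base, 2 in ES-1, 6 in ES-2 and 11 in ES indirect. Of these 19, 7 were joined to rRNA and 6 to Eif4a1 itself. The reference sequence around the base is chr11:69480931-69480960 of mm9, on the strand of the mRNA, with the shared end in a capital.
Eif4a1 3′UTR site: acctggccctagccCagggttcagtcctgg

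Some inverted pairs were more than 1000 nt apart on the spliced transcript. Hsp90ab1 had 1 in each library, with spans of 1414, 1371 and 1449 nt in the order ES-1, ES-2 and ES indirect. All 3 joined the last part of its coding sequence (RNA1 ends at nt 2037, 2223 and 2278) to a place early in it (RNA2 starts at nt 623, 852 and 829). The ES-2 and ES indirect pairs lay close to each other at both ends, and the ES-1 pair lay farther upstream. Their RNA2 places were chr17:45707729-45707745, chr17:45707371-45707417 and chr17:45707419-45707440. The RNA1 fragments of the ES-2 and ES indirect pairs overlapped, at nt 2183 to 2223 and nt 2191 to 2278. Their RNA2 fragments nearly adjoined, at nt 852 to 898 and nt 829 to 850. The RNA1 ends lay just too far apart for the grouping within 50 nt. The ES-1 pair joined different places. RNA2 was short in ES-1, at 17 nt, and in ES indirect, at 22 nt, so both of these placements rest on few bases. The junctions are shown, in the same notation, because they are the longest inverted pairs of Hsp90ab1 in the 3 libraries.
Hsp90ab1 junction in ES-1: cagaaggctgaggccAGCCCATTGGCCGGG
Hsp90ab1 junction in ES-2: gctgctgttcctgacGATTGAAGATGTGGG
Hsp90ab1 junction in ES indirect: tggaagaggtggatcAAGGAGGATGAGGAG

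Eef2 had 3 such pairs, all in ES indirect, with spans of 1935, 2568 and 2725 nt. Each joined an RNA1 in or reaching the 3′UTR to an RNA2 in the coding sequence, and the 2 longest began at nt 114 and 162, close to the start codon. Eef1a1 had 1 pair of 1028 nt in ES indirect, which joined nt 1512, just past the stop codon in the 3′UTR, to nt 484.

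Many fragments with another name matched the mRNA on the other side. Fragments of at least 40 nt that the files named otherwise were aligned to the transcript of the mRNA on the other side, and 778 read pairs had a fragment that matched it with at most 15% mismatches. There were 160 in ES-1, 11 in ES-2 and 607 in ES indirect. They were 535 of the 1079 pairs whose partner had no annotation, 236 of the 2777 pairs between different RNAs and 7 pairs with a close neighbour. The transcript matched better than the stated place in 429, equally in 318 and worse in 31. Gaps were allowed in the match to the transcript but not at the stated place, so this split can favour the transcript. Counting all of them would raise the within-RNA pairs of the 10 mRNAs from 613 to 1391, and counting the better matches alone to 1042. For the 349 that fitted the stated place at least as well, the origin of the fragment is uncertain.

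Many of these fragments held joined exons. Of the 778, 411 (52.8%, 49.3 to 56.3) crossed at least 1 exon junction of the mRNA. The fragment named for the mRNA crossed a junction in 7 of these pairs (0.9%). The stated place of every fragment named for the 10 mRNAs was as long as its sequence, with no gap. Of these pairs, 561 were of full read length. By order, 400 were collinear, 128 inverted (16.5%) and 250 overlapping.

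Eef1a1 had 249 such pairs against 72 named within-RNA pairs, Tuba1b 86 against 14, Hspa8 78 against 23 and Actg1 47 against 16. These are matches, and they differed in how firmly they point to the mRNA. The transcript fitted better than the stated place in 135 of the 249 pairs of Eef1a1, but in only 6 of 86 for Tuba1b, 12 of 78 for Hspa8 and 4 of 47 for Actg1. Eef2 had 126 against 155, Hsp90ab1 79 against 128, Actb 65 against 76, Eif4a1 20 against 28, Npm1 18 against 20 and Ncl 10 against 81. The better fits were 119 of 126 for Eef2, 71 of 79 for Hsp90ab1, 58 of 65 for Actb and all 10 for Ncl, but 3 of 20 for Eif4a1. By name, 143 of the fragments were pseudogenes and 65 protein-coding genes. Hspa8 was joined to Gm15459 in 37 pairs, Actb to Gm15725 in 34, Actg1 to Gm12715 in 28 and Eef2 to Gm11400 in 20. Tuba1b fragments were joined to its paralogs Tuba1c in 17 and Tuba1a in 16. These alpha-tubulin sequences are close, so the gene of origin of a fragment is uncertain there.

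**Figure D3:**
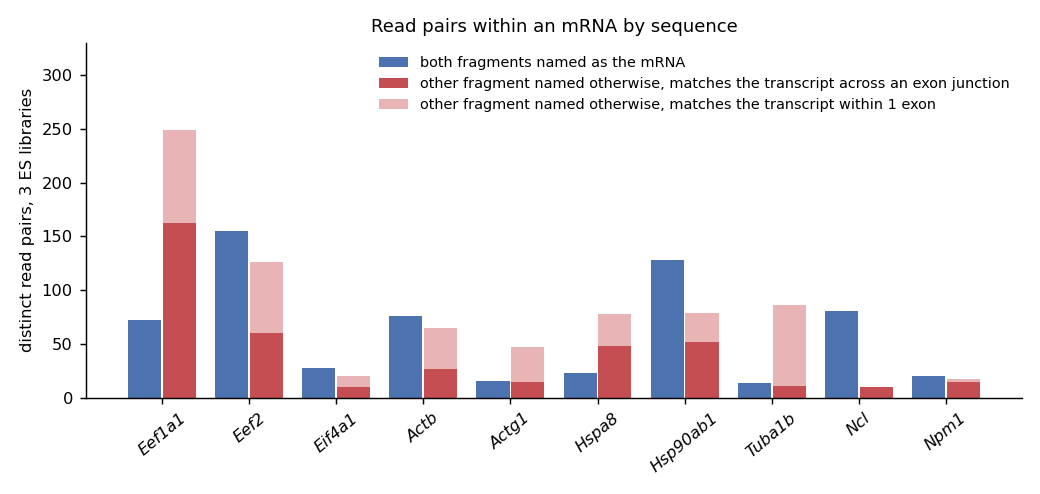
Distinct read pairs of the 3 ES libraries together (y axis, counts) for each mRNA (x axis), with pairs named within-RNA in blue and pairs whose other fragment was named otherwise but matched the transcript in red, dark where it crossed an exon junction. The red bar is taller than the blue for Eef1a1, Actg1, Hspa8 and Tuba1b, although for Actg1, Hspa8 and Tuba1b most of these fragments fitted their stated place equally well.

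Joined exons could be read in fragments placed elsewhere in the genome. They are shown because the same letters are parted by an intron at the gene of the mRNA, although a processed pseudogene can hold the same joined exons. The letters alone do not show that a fragment came from the mRNA, and for Hspa8 none of the 37 fragments named Gm15459 fitted the transcript better than that pseudogene. Lower case marks the last 15 bases of the upstream exon and capitals the first 15 bases of the downstream exon, and the letters are as deposited and equal to the reference transcript. The Hspa8 fragment across exons 5 and 6 was placed at chr5:5782352-5782451 and named Gm15459, and the Actb fragment across exons 5 and 6 was placed at chr16:37883513-37883602 and named Gm15725. The Ncl fragment across exons 3 and 4 was placed at chr11:18226959-18227077 in a (CAT)n simple repeat, and the Hsp90ab1 fragment across exons 5 and 6 at chrX:138415318-138415373 in a (GGAGAA)n repeat. The Eef1a1 fragment across exons 3 and 4 was placed at chr19:8035215-8035304 in Slc22a27, an organic anion transporter gene.
Hspa8 exons 5 and 6: ttgcctatggtgcagCTGTCCAGGCAGCCA
Actb exons 5 and 6: accatgaagatcaagATCATTGCTCCTCCT
Ncl exons 3 and 4: aagaggaggaagatgACTCTGAGGAAGAAG
Hsp90ab1 exons 5 and 6: cccatcaccctctatTTGGAGAAGGAACGG
Eef1a1 exons 3 and 4: acaggcacatcccagGCTGACTGTGCTGTC

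Across the junction shown, 23 fragments were found for Eef1a1, 10 for Hspa8, 7 for Ncl, 5 for Actb and 5 for Hsp90ab1, whatever their name.

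The next comparison asked which parts of the mRNAs were captured. A within-RNA pair entered these counts with both of its ends. Exonic ends, in the coding sequence or a UTR, were 98.2% of the ends of the 10 mRNAs in ES-1 (97.7 to 98.6), 95.6% in ES-2 (94.5 to 96.5) and 96.0% in ES indirect (95.3 to 96.6). Over all protein-coding genes, with within-RNA pairs left out, they were 43.1%, 37.7% and 26.3%, so intronic ends were far rarer among the 10 mRNAs than in general. The ends lay on the strand of the gene in 98.2%, 96.6% and 99.2%. There were exceptions in Eif4a1, with 74.8% and 69.8% exonic ends in ES-1 and ES-2 and 92.4% in ES indirect, and in Npm1, which had 42 intronic ends among 146 in ES indirect against 4 of 97 in ES-1 and 0 of 34 in ES-2.

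The 3′UTR took a larger share of exonic ends in ES indirect than in ES merged for several mRNAs. For Hsp90ab1 it was 7.94% in ES merged (6.52 to 9.65) and 20.2% in ES indirect (17.03 to 23.76), for a 3′UTR that is 9.52% of the transcript. For Actb it was 20.7% (17.4 to 24.5) and 32.6% (28.7 to 36.8), and for Actg1 20.5% (14.8 to 27.8) and 38.75% (31.5 to 46.5). The intervals of these 3 mRNAs did not overlap between ES merged and ES indirect. Both ends of a within-RNA pair were counted and are not independent, so the intervals are too narrow. Such pairs were more frequent in ES indirect for all 3. For Actg1, ES-2 alone had 23.4% (14.7 to 35.1), which overlapped ES indirect, and ES-1 alone 18.3% (11.4 to 28.0), which did not. The ES libraries differed among themselves for Actb, ES-1 with 27.8% lying near ES indirect and ES-2 far below with 8.60%. Ncl had 4.11% and 9.83%, while Eef1a1 with 4.19% and 6.47% and Eef2 with 16.7% and 18.8% had overlapping intervals. Eef2 too was split between the ES libraries, with 19.3% for ES-1 (16.88 to 22.01) and 10.4% for ES-2 (7.64 to 13.9), and the latter interval lay below that of ES indirect (15.8 to 22.3). The Eif4a1 3′UTR held 44.9% and 51.6% of the ends on 28.6% of the transcript, which is 106 ends per kilobase against 53.2 in the coding sequence of ES merged.

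Ribosomal RNA was the most frequent partner. Among exonic ends joined to anything but the same mRNA, 54.5% (52.8 to 56.2) had an rRNA partner in ES-1, 47.0% (44.4 to 49.6) in ES-2 and 40.4% (38.5 to 42.4) in ES indirect. Over all exonic protein-coding ends the shares were 56.5%, 56.6% and 44.4%, so the pooled share of these heavily translated mRNAs lay below the pooled general level in every library. Medians over genes with at least 20 read pairs, introns and within-RNA pairs included, gave another order in ES indirect, with 34.3% for the 10 mRNAs against 23.3% for all genes. In ES-1 they were 52.6% against 55.3%, and in ES-2 47.6% against 60.7%. The pairs above whose partner matched the mRNA itself are among the ends without an rRNA partner. Leaving out their fragments gave 57.2% in ES-1, 47.4% in ES-2 and 53.6% in ES indirect for the 10 mRNAs, and leaving out only the better matches gave 56.1%, 47.2% and 46.5%. These choices were made after the values were seen. The shares over all protein-coding ends were not recomputed in this way, so only the 54.5%, 47.0% and 40.4% can be set against them. The rRNA share also differed between the sides of the linker. With the mRNA as RNA1 an rRNA partner was found in 72.6% of the pairs in ES-1, 64.5% in ES-2 and 46.9% in ES indirect, and with the mRNA as RNA2 in 41.9%, 37.8% and 35.8%. All protein-coding ends showed the same order, with 74.6%, 72.6% and 51.2% as RNA1 and 38.9%, 41.8% and 30.9% as RNA2. Among the 10, Hspa8 in ES indirect had the opposite order, with 20.9% as RNA1 and 42.5% as RNA2, as did Tuba1b in ES-2, with 5 of 14 and 17 of 34. Over all pairs of the 10 mRNAs, the rRNA share was also split by flow cell of the first line of each pair. It was 47.6% and 56.3% in ES-1, with 46.0% and 48.1% in ES-2, and 28.3% and 41.7% in ES indirect.

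By the names in the files, the mRNAs ranged widely in ES indirect. Actb had an rRNA partner in 54.2% of the ends (49.3 to 58.9), Npm1 in 56.0% (45.8 to 65.8) and Ncl in 51.0% (44.1 to 57.9). Eef1a1 was lowest but for Tuba1b, at 30.1% (26.3 to 34.3) and 29.3% (23.2 to 36.1), and Eef2 had 32.9% (28.2 to 38.1). The Eef1a1 and Tuba1b intervals lay below those of Actb, Npm1 and Ncl. How wide the range was depended on the partners that matched the mRNA itself. They held 208 of the 498 ends of Eef1a1 and 81 of the 188 ends of Tuba1b, but 54 of the 408 ends of Actb and 4 of the 198 ends of Ncl. Without them, Eef1a1 had 51.7% (46.0 to 57.4), Tuba1b 51.4% (42.0 to 60.7), Ncl 52.1% (45.1 to 59.0), Eef2 46.1% (39.99 to 52.38) and Actb 62.4% (57.3 to 67.3). The intervals of Eef1a1 and Tuba1b then overlapped those of Actb and Ncl. Without the better matches alone, Eef1a1 had 39.2% (34.4 to 44.1), Tuba1b 30.1% (23.9 to 37.1), Ncl 52.1% and Actb 61.2% (56.1 to 66.1), so that Eef1a1 and Tuba1b still lay below both. Eef2 lay below Actb under either choice. By name, the spread was smaller under ultraviolet light. It ran from 42.9% for Hspa8 to 63.4% for Npm1 in ES-1 and from 40.7% for Eef2 to 58.8% for Npm1 in ES-2. Without all matching partners, ES indirect ran from 46.1% for Eef2 to 67.1% for Npm1, which is a similar spread. Actb had 54.9% in ES-1 and 55% in ES-2, where Eef1a1 had 52.4% and 45.9%. The Actb shares include 34 ends at a 5′UTR place, described below, that did not match Actb. Of these, 24 were in ES-2, and 31 of the 34 had an rRNA partner, so the ES-2 value rests partly on them.

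**Figure D4:**
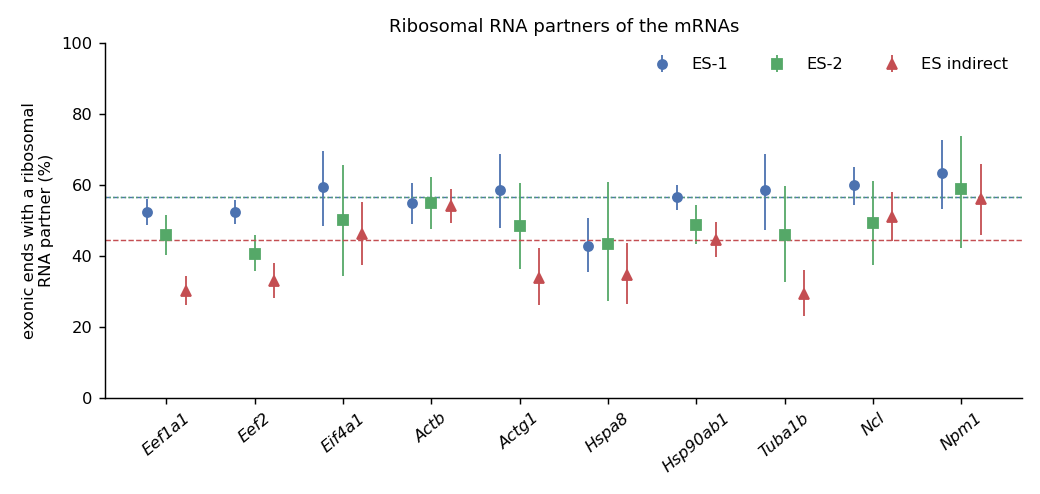
Share of exonic ends with a ribosomal RNA partner (y axis, percent) for each mRNA (x axis) in ES-1, ES-2 and ES indirect, with 95% Wilson intervals as bars and the share over all exonic protein-coding ends of each library as dashed and dotted lines. Partners are as named in the files, and by these names Eef1a1, Eef2, Actg1, Hspa8 and Tuba1b lay between 29.3% and 34.5% in ES indirect, for Eef1a1 at 30.1% against 51.7% without all fragments matching its transcript and 39.2% without the better matches alone.

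Within rRNA, the large subunit (LSU) rRNA was joined to the 10 mRNAs in 1272 pairs and the small subunit (SSU) rRNA in 534 in ES-1, or 70.4% LSU. The counts were 494 and 202 in ES-2 (71.0%) and 481 and 489 in ES indirect (49.6%). All exonic protein-coding ends gave 67.9%, 73.2% and 51.7%. As a group, the mRNAs thus followed the LSU share of their library. In ES indirect it was 30% for Actg1 (18.1 to 45.4) and 42.6% for Actb (36.1 to 49.4), the lowest of the 10 beside Tuba1b with 41.5%, and 63.2% for Hspa8 was the highest.

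Some ends named for these mRNAs did not match the place given for them. With more than 15% mismatches counted as not matching, this was so for 81 of 3452 ends joined to another RNA in ES-1 (2.35%), 92 of 1493 in ES-2 (6.16%) and 31 of 2531 in ES indirect (1.22%). Of the 184 intronic ends, 128 did not match. The ends gathered at 5 places with at least 10 each. The largest was an intron of Eif4a1, on the strand opposite to the gene, at chr11:69484398-69484420, with 28 ends in ES-1, 18 in ES-2 and 5 in ES indirect. All 51 were RNA2 fragments of 18 to 23 nt. In 26 of them the letters were those shown, next to the reference at chr11:69484402-69484420, in which capitals mark the 5 bases that differ.
Eif4a1 intron fragment as deposited: cgagaggaaccgcaggttc
Eif4a1 intron reference: AAGTGggaaccgcaggttc

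The deposited letters occurred, on either strand, in 10272 of the 486669 distinct fragment sequences that ES-1 named as LSU rRNA. The second largest place was an intron of Hsp90ab1, with 36 ends on the opposite strand, of which 21 came from ES-1, 8 from ES-2 and 7 from ES indirect. Its most common letters, in 10 of the ends, occurred in 1655 LSU fragments of ES-1 and differ from the reference, chr17:45709718-45709744, at the capitals.
Hsp90ab1 intron fragment as deposited: aagcgtcgcggttccggcggcgtccgg
Hsp90ab1 intron reference: aagcACGTTggtAccggcggcgtccgg

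The other places were the 5′UTR of Actb with 34 ends, 24 of them in ES-2, and introns of Eef1a1 with 23 and 12 ends. The most common letters at each were held by 5 of the 34 Actb ends and by 10 of 23 and 3 of 12 Eef1a1 ends. These letters were found in 0 LSU and 0 SSU fragments of ES-1. Other letters at these places, fragments of ES-2 and rRNA fragments under other names were not searched. Whether these ends are ribosomal was therefore not tested. Actb had 60 of its 187 ends in the 5′UTR in ES-2, against 16 of 316 in ES-1 and 32 of 528 in ES indirect, so the ES-2 value includes these ends. The low exonic shares of Eif4a1 under ultraviolet light, with 28 and 19 intronic ends in ES-1 and ES-2, coincide with 28 and 18 ends at its intron place.

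The last comparison asked which other RNAs were joined to the mRNAs, and which recurred. Over the 3 libraries there were 1876 combinations of an mRNA and a named partner other than rRNA. Of these, 167 (8.90%) were seen in 2 or more libraries and 13 in all 3. Of all 361538 pairs of RNAs with a between-RNA read pair, 6.57% were seen in 2 or more, so the share was close to the background. Without pairs whose fragments lay within 2000 bp of each other, which that background leaves out, there were 1872 combinations, of which 165 (8.81%) recurred and 12 were seen in all 3 libraries. snoRNAs made up 75 of the 167, and 95 were seen only in ES-1 and ES-2. Eef2 had 52 recurrent partners, Eef1a1 38, Hsp90ab1 34 and Actb 19, and the others 2 to 8.

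The partner with most read pairs matched the transcript of the mRNA in most cases, whether better than its stated place or not. Eef1a1 had Gm5822 (15 read pairs, 11 of them matching Eef1a1), Slc22a27 (13, of which 10) and Snora81 (11, none matching). Eef2 had Gm11400 (27, of which 20), Snora81 (19) and the other locus called SNORA81 (12). Hsp90ab1 had SNORA81 (11), GC-rich sequence (10) and (GGAGAA)n, for which all 8 matched, tied with Snora73a and Snora33 (8 each, none matching). Actb had Gm15725 (36, of which 34), Snora81 (9) and the LINE family L1Md_T (6). Hspa8 had Gm15459 (39, of which 37) and Agap1 (2), and Actg1 had Gm12715 (32, of which 28) and Gm8399 (6, of which 5). Tuba1b had Tuba1a (17, of which 16) and Snora74a (3), Ncl had (CAT)n, for which all 8 matched, and Snora73b (3), and Npm1 had Gm5611, for which all 3 matched, and the SINE family B1_Mus1 (3). Eif4a1 had Snord91a (7), Snora81 (3) and SNORA48 (3), the last of which lies in its own intron and recurred only by counting 2 pairs with close ends.

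Each observed pair was tested with a one-sided Fisher's exact test on between-RNA read pairs, in which the expected number is the product of the counts of both RNAs divided by all between-RNA read pairs. With Benjamini-Hochberg adjustment over all observed pairs and at least 3 read pairs, 15 of 1324 pairs of these mRNAs were called in ES merged, where 0.895% of all pairs were called. In ES indirect 17 of 617 were called, where the background was 2.54%. The shares of the 10 mRNAs, 1.13% and 2.76%, were close to the background under this adjustment. Pairs of 2 rare RNAs reach a small p with few reads in this scheme. When pairs that were never observed entered the adjustment with a p of 1, 8 calls in ES merged, or 0.604% (background 0.24%), and 15 in ES indirect, or 2.43% (background 1.19%), were left. Under this adjustment the shares of the 10 mRNAs lay above the background.

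All of these except Eif4a1 with Snord91a had partner fragments that matched the transcript of the mRNA. In ES merged, Hspa8 and Gm15459 had 13 read pairs against 0.0223 expected (adjusted p over all possible pairs 2.15e-26, Fisher's exact test), and all 13 matched Hspa8, 11 of them equally well and 2 less well than their stated place. In ES indirect, Actb and Gm15725 had 28 against 0.0274 (1.81e-74), of which 26 matched Actb, 22 of them better than the stated place. Tuba1b and Tuba1c had 19 against 0.0163 (1.41e-48), of which 17 matched Tuba1b, none of them better than the paralog. For Gm15459 and Tuba1c a contact between different RNAs cannot be told apart from a contact within the mRNA. The same holds for the 4 matching Gm15725 fragments that fitted both places equally. The 22 others fitted Actb more closely than the partner they were named for. Without the matching fragments and adjusted over all possible pairs, 1 pair was left in ES merged and 2 in ES indirect. In ES merged it was Eif4a1 with Snord91a, a C/D box snoRNA, of which ES-1 held 5 read pairs and ES-2 held 2, against 0.0318 expected (adjusted p 4.16e-09, Fisher's exact test). All 7 Eif4a1 ends of it were RNA2 fragments, and the pair was no longer called once ends that did not match their place were left out. How many of these ends lay at the intron place shown above was not tabulated. In ES indirect they were Eef2 with Gm11400, with 5 read pairs left against 0.0085 expected (4.38e-08), and Actg1 with Gm12715, with 4 against 0.00882 (3.2e-05). With adjustment over the observed pairs alone, 5 pairs were called in each of the libraries. A wider choice left out every read pair whose partner fragment, of any length and on either strand, occurs in the gene or transcript of the mRNA with at most 15% mismatches. Adjusted over all possible pairs, Fisher's exact test then called 1 pair in ES merged and 0 of 13 pairs with at least 3 read pairs in ES indirect, of which 5 had an unadjusted p under 0.05. Without read pairs in which an end did not match its place as well, it called 0 of 101 pairs in ES merged, of which 12 had an unadjusted p under 0.05. Over the observed pairs alone, the wider choice left 4 calls in ES merged and 3 in ES indirect.

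**Figure D5:**
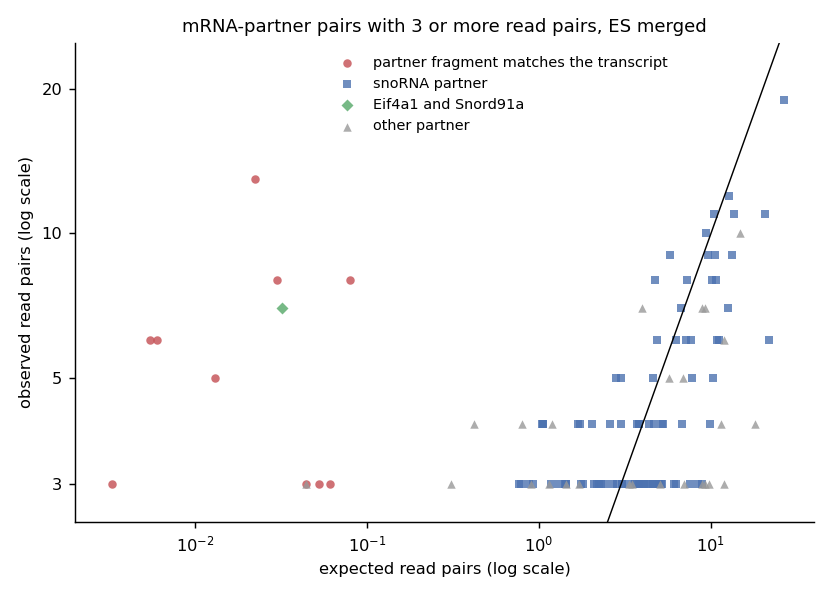
Observed against expected read pairs, on log scales, for the pairs of the 10 mRNAs and a partner with at least 3 read pairs in ES merged, with the diagonal of equal values as a line. Partners whose fragments matched the transcript, and Eif4a1 with Snord91a, lie far to the left of the line, whereas snoRNA partners lie about it, for example Eef2 with Snora81 at 19 observed and 26.8 expected.

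snoRNAs guide the modification of rRNA and were frequent on the other side of these mRNAs under ultraviolet light. They were the partner of 21.3% of the exonic ends in ES-1 (720 ends), 11.8% in ES-2 (169) and 0.927% in ES indirect (23), close to the 21.5%, 9.56% and 1.15% of all exonic protein-coding ends. In 615, 140 and 11 of these the mRNA was RNA2. snoRNA fragments made up 32.3%, 14.1% and 1.38% of RNA1 and 10.1%, 6.13% and 1.39% of RNA2 in the libraries, so the mRNAs followed the snoRNA content of each library and side.

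The introns of 4 of the genes hold 10 annotated snoRNAs, which offered a view of contacts between a snoRNA and its own host mRNA. SNORA48 was joined to Eif4a1 in 1 read pair of each library, and all 3 Eif4a1 ends were exonic. In 2 of the 3 the fragments lay within 2000 bp of each other. SNORA67 and Eif4a1, and Snord37 and Eef2, were joined in 1 read pair each, in ES indirect, again at close distance. snoU6-77 of Eif4a1, Snord14c, Snord14d and Snord14e of Hspa8, and Snora75, SNORD20 and Snord82 of Ncl had 0 read pairs with their host. A count of 0 here means that no contact was detectable at this depth.

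The wider classes to which the 10 mRNAs belong were read from lists of other genes. The 22 other elongation and initiation factors had within-RNA shares of 5.68% in ES-1, 1.91% in ES-2 and 30.7% in ES indirect, led by Pabpc1, the poly(A)-binding protein, with 24, 6 and 51 pairs and Eif4b with 13, 1 and 48. The 23 chaperones had 3.65%, 0.945% and 20.9%, led by Hspa4 (2, 1 and 49) and Hsp90aa1 (8, 0 and 38), the inducible HSP90. The cytoskeletal genes had 5.47%, 2.49% and 37.2%, led by Capzb, the beta subunit of the actin capping protein, with 4, 2 and 271, and Actn1, an alpha-actinin, with 5, 2 and 202. The 20 nucleolar protein genes had 4.22%, 2.67% and 31.8%, led by Wdr43 (4, 0 and 50) and Polr1a (7, 2 and 36). By name, all 4 lists lay above the 14.8% of the 10 abundant mRNAs in ES indirect. Against the 35.2% of the 10 with matching fragments, or 25.6% with better matches alone, the order would differ, and the lists were not recomputed in this way. The lists were not limited to exons either, and the regions of their pairs were not compared.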

How the data were processed

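MARIO libraries of mouse ES cells were taken as deposited. Per the labels and the methods, the authors removed duplicates by random barcode, found the linker, split each molecule into RNA1 and RNA2, mapped both to mm9 and annotated them. The submitters' processing notes name TopHat2 2.1.1. The files hold positions, sequences and names with no measured value, so every count here is a count of lines. Fibroblast and brain libraries were not used here. Members and gene lists were chosen with earlier results of these data known. Named partners were the 3 with most read pairs seen in 2 or more libraries for each mRNA, and called pairs.

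Coordinates are 1-based on NCBIM37. The longest spliced protein-coding transcript of GENCODE vM1 gave transcript positions. RNAs within 2000 bp were called neighbours. A stated place was compared base by base without gaps, and at most 15% mismatches counted as a match. Matches to the gene or transcript of an mRNA were found with edlib 1.3.9.post1, in which gaps were allowed and counted as mismatches. Analyses used python 3.11.15, pandas 2.3.3, scipy 1.17.1 (Fisher's exact test) and statsmodels 0.14.6 (Benjamini-Hochberg, adjusted p under 0.05, at least 3 read pairs). The test followed the study and was tested on simulated data, where adjustment over observed pairs alone called pairs of rare RNAs that had not been planted, so an adjustment over all possible pairs was added. p-values describe libraries and carry no replicate error, and ES-1 and ES-2 were independent assays by the study's account. The sources do not say whether these used separate cultures. Read pairs are not independent molecules, so intervals cover counting error only. Alternatives changed the collapse of lines, matching, fragment length, strand, annotation, sides, libraries and adjustment.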

Additional observations from a re-analysis of the deposited data

How the results depend on the processing

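Of 111 alternatives over 13 results, 64 left the value within its counting or replicate spread. Alternatives on full read length, on fragments that match the transcript and on adjustment over all possible pairs were chosen after seeing the data. For ES merged the values reported were 175 within-RNA pairs, 11.4% inverted, 9.71% over 200 nt, 50.4% with rRNA and 97.5% exonic. Counting every line gave 939 within-RNA pairs, 4.26% inverted and 41.0% with rRNA, and ordering overlapping fragments by their middles gave 17.7% inverted. Requiring both sequences to match the genome gave 55.2% with rRNA and 99.5% exonic ends. The rRNA share was 70.3% with the mRNA as RNA1 and 40.6% as RNA2. Fragments matching the transcript raised the within-RNA pairs to 346, or 282 with better matches alone, and leaving out pairs of full read length left 30, of which 60.0% were inverted and 43.3% over 200 nt. Leaving out ES-1 or ES-2 gave 21 to 154 within-RNA pairs, 7.79% to 38.1% inverted, 9.09% to 14.3% over 200 nt, 46.9% to 51.9% with rRNA and 95.6% to 98.2% exonic.

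For ES indirect, counting every line gave 1390 within-RNA pairs, 8.35% inverted, 12.01% over 200 nt, 22.5% with rRNA and 94.98% exonic. Matching sequences gave 37.1% with rRNA, and the mRNA as RNA1 46.9%. Genomic distance gave 24.2% over 200 nt, and the regions of the longest transcript 92.5% exonic. Matching fragments gave 1045 within-RNA pairs, or 760 with better matches alone, and without pairs of full read length 144 were left, 48.6% inverted and 43.75% over 200 nt.

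Leaving out ES-1 or ES-2 left 37 to 48 of the 167 recurrent partners, since fewer libraries were compared. The 15 calls of ES merged became 105 with every line, 27 with a minimum of 2 read pairs and 4 without partner fragments, of any length or strand, that occur in the gene of the mRNA, and 1 to 11 without ES-1 or ES-2. They became 8 adjusted over all possible pairs, 1 also without those fragments, and 0 also without read pairs with an end that does not match its place. The 17 calls of ES indirect became 50, 30 and 3 under the first 3 of these settings, and 0 and 0 under the last 2. Leaving out only fragments of at least 40 nt that match the transcript left 5 and 5 calls, or 1 in ES merged and 2 in ES indirect adjusted over all possible pairs. Beyond those settings the cause of a change was not tested. No paired analysis was possible because the groups share no replicate that was compared: ES indirect has 1 library. Shares within RNAs are least precise in ES-2, with 21 pairs.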
